A study of Arabidopsis thaliana with 24 samples.

Results

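Leaf transcript levels of 2 Arabidopsis thaliana ecotypes, Rodasen-47 from Sweden (SW) and Castelnuovo-12 from Italy (IT), were compared in plants grown in low light and cool air (LLC). The comparison took the 3 libraries titled for Sweden in this regime (SW_LLC) and the 3 titled for Italy (IT_LLC), 6 of the 24 libraries of the study, and ran across all genes. Both LLC groups received 100 µmol photons per square metre and second for 9 h a day, with leaf temperatures of 16 °C by day and 12.5 °C by night. Each ecotype was 1 sub-line grown from seed to the vegetative stage in growth chambers, and 2 discs of 0.73 square cm of the youngest fully developed leaf were frozen after the 15 h night. A second regime, high light and warm air (HLW, 1000 µmol photons per square metre and second, 25 °C by day and 20 °C by night), with 9 h days as well, supplied 3 SW_HLW and 3 IT_HLW libraries whose difference was set against that in LLC. Libraries of low light, warm (LLW) and high light, cool (HLC) plants of both ecotypes entered side comparisons. LLW had 100 µmol photons per square metre and second, with 25 °C by day and 20 °C by night. HLC had 1000 µmol photons per square metre and second, with 14 °C by day and 12.5 °C by night. Days lasted 9 h there too. Where the 3 replicates of a group came from is not given beyond the word biological, and p-values therefore reflect only how far these libraries vary.

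Cold acclimation in Arabidopsis runs in part through the CBF transcription factors, which switch on COR genes for protective proteins. Leaves also carry an immune system in which the hormone salicylic acid, made mainly through the enzyme ICS1, turns on pathogenesis-related (PR) genes. Growing cells make ribosomes in the nucleolus, where box C/D and box H/ACA particles modify the ribosomal RNA.

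Total counts ran from 13336299 to 17467653 in SW_LLC and from 13155426 to 14996439 in IT_LLC. Of 33610 genes in the table, 17709 passed the filter on low counts. Levels are given as CPM, a gene's share of the normalized library total, and fold changes as log2 of SW_LLC over IT_LLC with their standard error (SE). Genes with an adjusted p below 0.05 in edgeR's quasi-likelihood test are referred to as called. The SE was derived from that test, as the size of the fold change over the square root of its F statistic. Plastid transcripts took 60.62% ± 0.645 of the counts in SW_LLC and 66.07% ± 1.05 in IT_LLC (SD, n = 3 each), and the groups did not overlap (exact permutation test, two-sided, p = 0.1, the smallest that 3 against 3 libraries allow). Shares of mitochondrial transcripts averaged 1.372% in SW_LLC and 1.357% in IT_LLC, a difference within the spread between libraries.

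A pair of features of these libraries bears on every result. First, presence and absence of transcripts did not separate the 2 LLC groups as it separated the labels in another regime. Of 95 transcripts present in the Swedish low light, warm libraries and absent from IT_LLW, IT_HLW, SW_HLW and SW_HLC, 60 were present in SW_LLC and 62 in IT_LLC. Of 54 transcripts with the reverse pattern, 0 were present in SW_LLC and 0 in IT_LLC. The 2 LLC groups therefore shared 1 transcript set, and by the way the sets were defined the 2 HLW groups shared the other. Whether each of these libraries carries the label of its own ecotype cannot be told from these data, and some may carry the other's. Below, Swedish and Italian mean titled so, and every direction is one between labels. Regimes and their temperatures are likewise those of the labels. Second, SW_LLC replicate 2 stood apart from replicates 1 and 3. On the first principal component of the 2000 most variable genes, which held 79.5% of the variance, it lay at 24.97, against 62.84 and 73.7 for the other SW_LLC libraries and -55.7 to -51.72 for IT_LLC.

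Of the 17709 genes tested, 7571 (42.8%) were called, 4021 (22.7%) higher and 3550 (20%) lower in SW_LLC. Without SW_LLC replicate 2 the count was 8333 of 18126 (46%), 4321 higher and 4012 lower. Large differences were mostly increases, since 410 called genes were higher by at least 3 on the log2 scale and 106 were lower by at least that much. At 4 the counts were 191 and 28. The median fold change of all tested genes was -0.02. The shares of 22.7% higher and 20% lower are the background for the list counts below.

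Genes of salicylic acid defence were much higher in SW_LLC. PR1, the standard marker gene of salicylic acid responses, had 1638, 407 and 1982 CPM in SW_LLC, against 10.3, 42.4 and 13.1 CPM in IT_LLC. The lowest Swedish library was well above the highest Italian one, and the fold change was 5.93 (SE 1.01, adjusted p = 0.000141). PR2, a beta-1,3-glucanase, had 913, 277 and 1503 CPM in SW_LLC and 11.3, 42.4 and 11.6 CPM in IT_LLC, a fold change of 5.36 (SE 0.74). PR5, a thaumatin-like protein, had 874, 230 and 1269 CPM in SW_LLC and 8.91, 53.4 and 12.9 CPM in IT_LLC (4.97, SE 0.70). In all 3 genes SW_LLC replicate 2 was the lowest of its group and IT_LLC replicate 2 the highest of its own.

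Genes of salicylic acid synthesis and perception were higher too. ICS1, the isochorismate synthase that makes most pathogen-induced salicylic acid, had 189, 27.1 and 335 CPM in SW_LLC and 3.48, 5.51 and 4.79 CPM in IT_LLC, a fold change of 5.32 (SE 0.64, adjusted p = 7.53e-06). EDS5, which exports the isochorismate from the chloroplast, rose by 5.76 (SE 0.73), and PBS3, which conjugates it to glutamate, by 5.75 (SE 0.72). NPR1, a salicylic acid receptor, rose by 0.81 (SE 0.16). Of 23 members of the salicylic acid list that were tested, 22 were called higher and 0 lower, with a median fold change of 2.91. The member not called was WRKY54, at 4.88, 3.83 and 4.3 CPM in SW_LLC and 3.24, 0.697 and 4.46 CPM in IT_LLC. Without SW_LLC replicate 2, 21 members were called higher and the median was 3.32.

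Most immune receptors and signalling genes were also higher. Of 28 tested members of that list, 22 were higher and 1 lower, with a median of 1.36. RLP23, the receptor-like protein that recognises a peptide of NLP toxins, had 102, 29.1 and 159 CPM in SW_LLC and 2.75, 3.90 and 3.80 CPM in IT_LLC (4.79, SE 0.49, adjusted p = 2.09e-06). The mitogen-activated kinase MPK11 rose by 4.44 (SE 0.61), and the co-receptor BAK1 by 1.03 (SE 0.16). CYP71A13, an enzyme on the way to the antimicrobial compound camalexin, had 98.8, 8.71 and 98.0 CPM in SW_LLC and 0.810, 1.53 and 0.330 CPM in IT_LLC. The member that fell was FLS2, the receptor for bacterial flagellin, at 6.93, 13.2 and 8.07 CPM in SW_LLC and 30.8, 27.3 and 34.7 CPM in IT_LLC, a fold change of -1.71 (SE 0.34, adjusted p = 0.000489).

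Whole families showed the same skew, described here after their values were seen. They overlap the lists above: WRKY18, WRKY46, WRKY54 and WRKY70 are also members of the salicylic acid list. Of 41 tested WRKY transcription factors, 22 were higher and 0 lower. Of 33 tested cysteine-rich receptor-like kinases (CRKs), 22 were higher and 0 lower. CRK5 was steady within groups, with 13.6, 14.5 and 14.9 CPM in SW_LLC and 2.83, 2.51 and 4.46 CPM in IT_LLC (2.14, SE 0.30), while CRK7 rose by 6.40 (SE 0.73). Of 44 tested receptor-like proteins, 22 were higher and 4 lower. Members of these families sit in clusters of similar genes and can share reads.

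The 12 highest were ranked among called genes with a symbol, a mean log2 CPM of at least 3 and groups that did not overlap. They included TAT3, CHI, AIG1, CAX3 and CYP89A9. TAT3 of the jasmonate list, a tyrosine aminotransferase, had 224, 77.9 and 321 CPM in SW_LLC and 0.486, 2.86 and 0.0825 CPM in IT_LLC, a fold change of 7.42 (SE 1.12). The chitinase gene CHI (AT2G43570) rose by 6.97 (SE 1.02), and AIG1, first found as a gene induced by the bacterial effector AvrRpt2, by 6.36 (SE 0.87). CAX3, a vacuolar calcium/proton exchanger, had 154, 37.1 and 206 CPM in SW_LLC and 3.89, 0.976 and 0.495 CPM in IT_LLC (6.22, SE 0.85). CYP89A9, a cytochrome P450 that acts on chlorophyll breakdown products, rose by 5.12 (SE 0.72). That no library of one group overlapped with the other was a condition for choosing these genes, not a result.

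**Figure D1:**
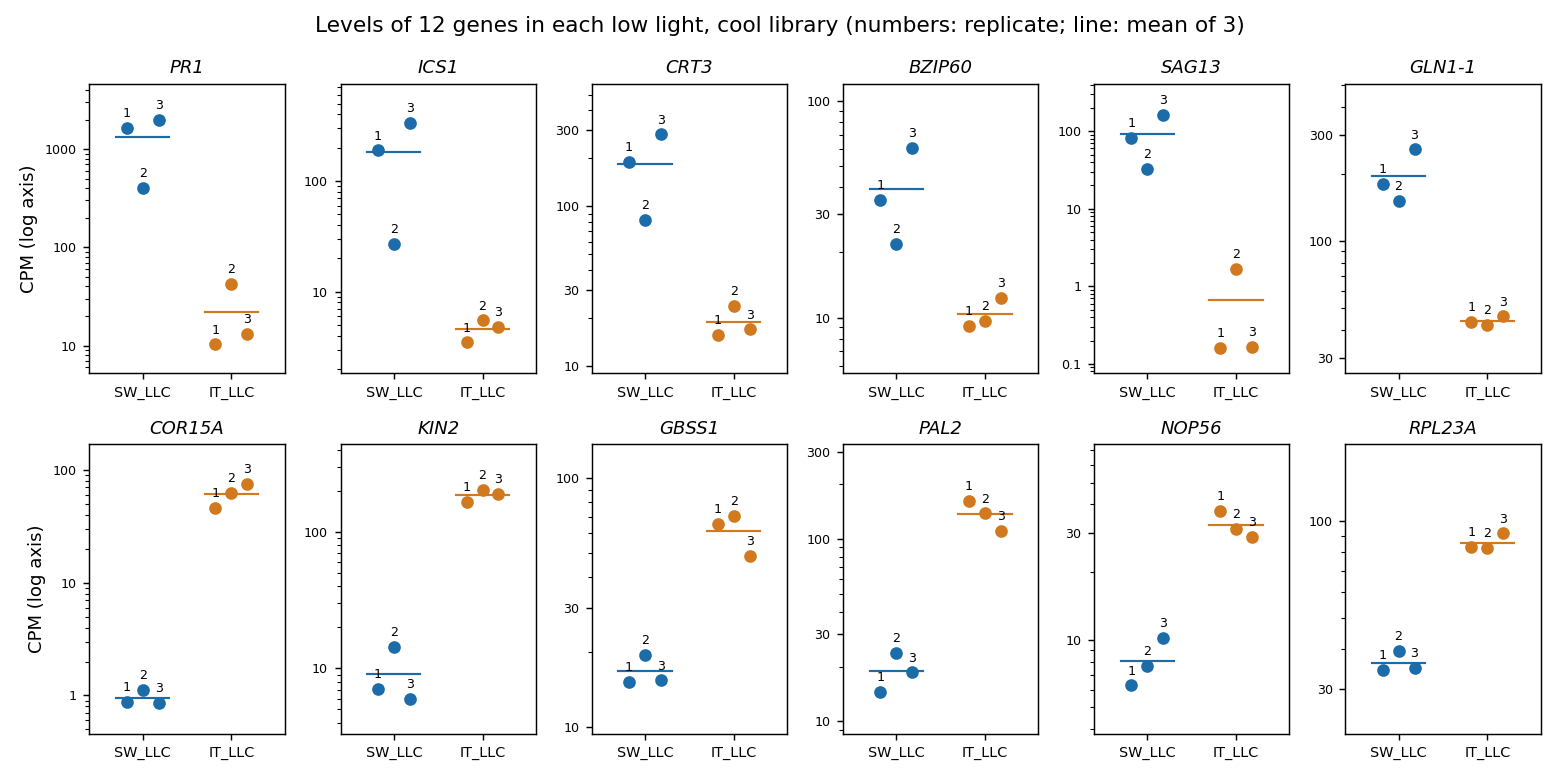
CPM on a log axis in each of the 3 SW_LLC libraries (left, blue) and the 3 IT_LLC libraries (right, orange) for 12 genes, with the replicate number above each point and a line at the mean of 3. In the upper row (defence, protein folding, senescence) every SW_LLC library is above every IT_LLC library and replicate 2 is the lowest of its group; in the lower row (cold, starch, phenylpropanoids, ribosomes) every SW_LLC library is below.

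Chaperones of the endoplasmic reticulum (ER), the compartment in which secreted proteins are folded, were higher in SW_LLC throughout the list. All 11 tested members were called higher and 0 lower, with a median of 1.93. CRT3, a plant-type calreticulin needed for folding of the immune receptor EFR, had 190, 82.0 and 283 CPM in SW_LLC and 15.6, 23.7 and 16.9 CPM in IT_LLC (3.30, SE 0.36, adjusted p = 2.69e-06). BZIP60, the transcription factor of the unfolded protein response, had 35.1, 21.9 and 60.9 CPM in SW_LLC and 9.15, 9.62 and 12.4 CPM in IT_LLC (1.92, SE 0.30). The ER-resident HSP90-7 rose by 1.93 (SE 0.32) and the disulfide isomerase PDIL1-1 by 2.32 (SE 0.38).

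SW_LLC replicate 3 was the highest library for these 4 genes. The ER chaperones BIP1 and BIP2, near-identical genes that can exchange reads, depended on it most. BIP1 had 85.5, 46.1 and 275 CPM in SW_LLC and 48.3, 29.0 and 25.2 CPM in IT_LLC, so that SW_LLC replicate 2 lay within the Italian range. Both were still called, at 1.99 (SE 0.43) for BIP1 and 2.07 (SE 0.47) for BIP2.

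Cytosolic heat shock genes gave mixed results. Of 5 tested members, 3 were higher and 1 lower. HSP90-1, the stress-induced cytosolic HSP90, had 6.78, 7.44 and 18.8 CPM in SW_LLC and 0.162, 0.348 and 0.495 CPM in IT_LLC (5.0, SE 0.57). Hsp70-2, outside the list, rose by 4.80 (SE 0.52), whereas its constitutive relative HSC70-1 fell by 0.68 (SE 0.16).

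Most senescence and detoxification genes were higher too. Of 9 tested senescence genes, 7 were higher and 0 lower, with a median of 1.38. SAG13, a short-chain dehydrogenase gene of early senescence, had 83.1, 32.4 and 162 CPM in SW_LLC and 0.162, 1.67 and 0.165 CPM in IT_LLC (7.01, SE 1.00). NYE1, which takes the magnesium out of chlorophyll, rose by 1.79 (SE 0.29), PAO, which opens its ring, by 1.38 (SE 0.23), and the transcription factor WRKY6 by 1.99 (SE 0.36). The cytosolic glutamine synthetase GLN1-1, which reassimilates ammonium, had 180, 152 and 258 CPM in SW_LLC and 43.5, 42.2 and 46.0 CPM in IT_LLC (2.16, SE 0.30). Of 13 tested oxidative stress and detoxification genes, 8 were higher and 0 lower. The glutathione transferases GSTF6 and GSTF7, a near-identical pair, rose by 4.24 (SE 0.67) and 3.47 (SE 0.55), and AOX1A, the alternative oxidase of mitochondria, by 1.57 (SE 0.26). CAT3, a catalase, had 2440.5, 2733 and 2033 CPM in SW_LLC and 857, 977 and 1229 CPM in IT_LLC (1.23, SE 0.24).

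Of 16 jasmonate genes tested, 5 were higher and 0 lower, beside 22.7% and 20% of all genes tested. OPR3, a peroxisomal reductase of jasmonate synthesis, had 13.5, 22.6 and 19.6 CPM in SW_LLC and 2.51, 1.88 and 1.65 CPM in IT_LLC (3.20, SE 0.56). LOX2, the lipoxygenase at the start of that pathway, had 698, 1397 and 636 CPM in SW_LLC and 174, 247 and 222 CPM in IT_LLC (2.09, SE 0.52). In LOX2 and OPR3, SW_LLC replicate 2 was the highest of its group, unlike in PR1, PR2 and PR5. Of 17 tested abscisic acid and drought genes, 6 were higher and 1 lower.

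**Figure D2:**
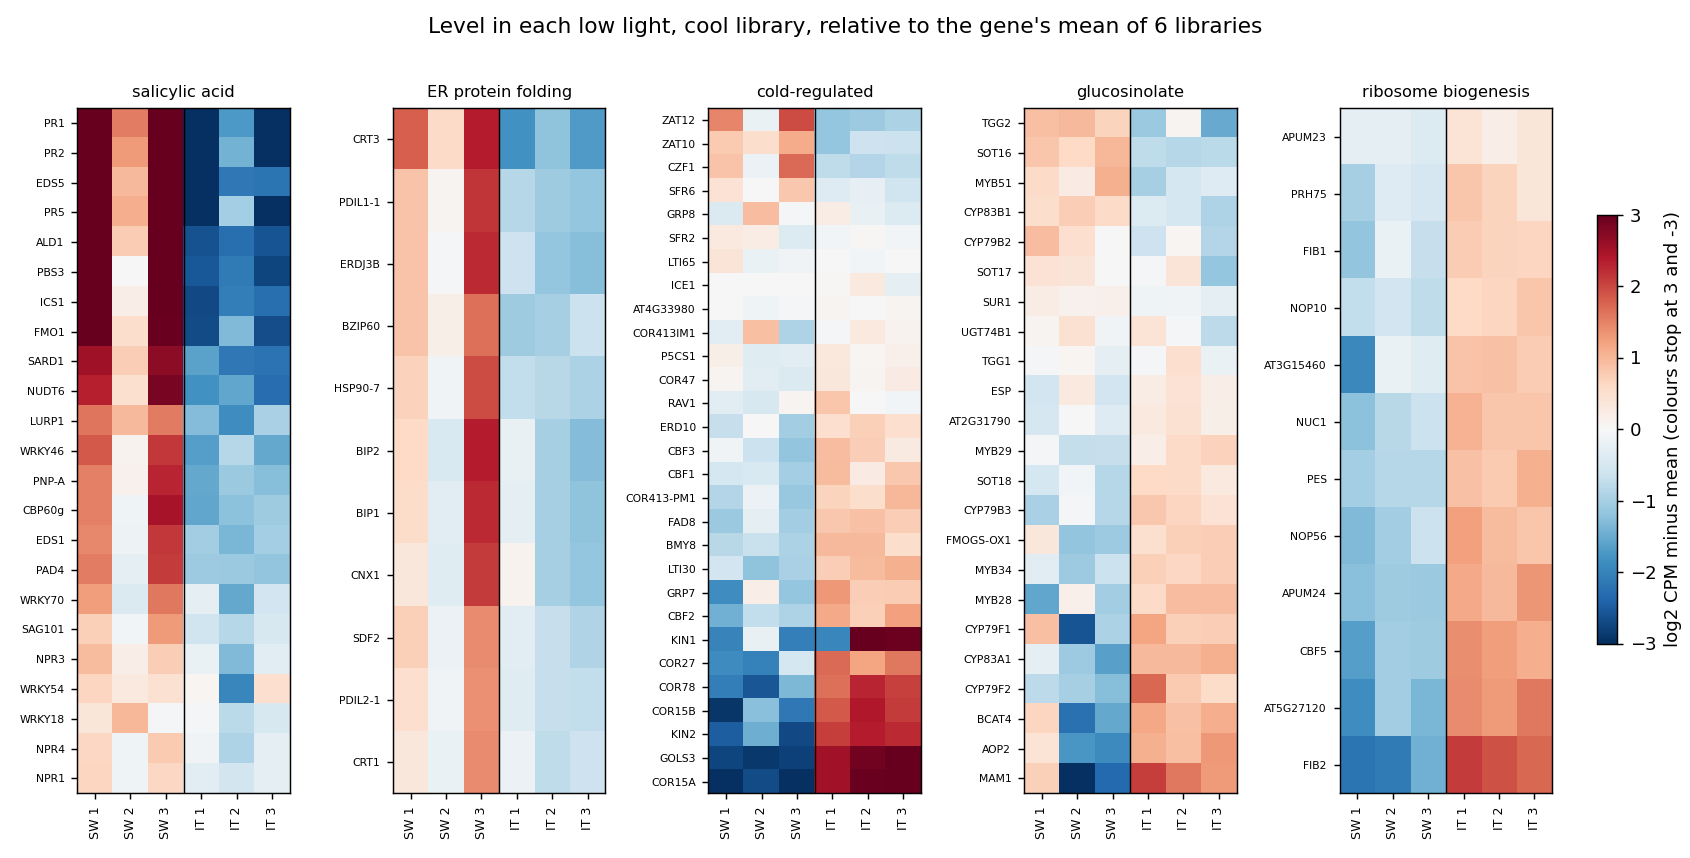
Colours show log2 CPM minus the gene's mean over the 6 LLC libraries, with SW_LLC replicates 1 to 3 left and IT_LLC replicates 1 to 3 right of the line, for the tested members of 5 lists. The salicylic acid and ER genes stand lower in SW_LLC 2 than in SW_LLC 1 and 3, except WRKY18, which is highest in SW_LLC 2, and the 12 ribosome biogenesis genes are blue or pale blue in all 3 SW_LLC libraries.

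Listed genes for making ribosomes were lower in SW_LLC. All 12 members of the ribosome biogenesis list, a list of chosen genes, were called lower, with a median of -1.81. CBF5, the pseudouridine synthase of box H/ACA particles (symbol NAP57), had 2.04, 3.19 and 3.17 CPM in SW_LLC and 18.1, 16.4 and 14.6 CPM in IT_LLC (-2.53, SE 0.21, adjusted p = 3.65e-07). NOP56, a core protein of box C/D particles, had 6.27, 7.65 and 10.2 CPM in SW_LLC and 37.6, 31.1 and 28.6 CPM in IT_LLC (-2.01, SE 0.25). PES, a pescadillo-type protein of the large subunit, was at -1.84 (SE 0.17) and the nucleolin gene NUC1 at -1.78 (SE 0.27). FIB2, 1 of 2 fibrillarin genes, was at -4.42 (SE 0.59), a value that rests on at most 5 counts in a Swedish library.

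All 12 members of the cytosolic ribosomal protein list, again a list of chosen genes, were also lower, with a median of -1.0. RPL23A had 34.4, 39.4 and 34.9 CPM in SW_LLC and 82.8, 82.5 and 91.4 CPM in IT_LLC (-1.24, SE 0.16). RPS18A was at -1.38 (SE 0.15) and RPSAA at -1.20 (SE 0.21). Among the 12 lowest genes were also a pair outside the lists: EDA25, also named SLOW WALKER2, with 4.3, 4.3 and 4.43 CPM in SW_LLC and 23.7, 21.5 and 22.6 CPM in IT_LLC (-2.38, SE 0.20), and RACK1C, a scaffold on the small subunit (-2.23, SE 0.28). Cell cycle genes were sparsely measured, with 9 of 14 tested, 4 of them lower and 0 higher; 2 were lower without SW_LLC replicate 1 or 2. MCM5, part of the replicative helicase, was at -2.68 (SE 0.58).

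Cold-regulated genes were mostly lower in SW_LLC, although the labels give both groups the same temperatures. Of 29 tested members, 16 were lower and 4 higher, with a median of -1.43. COR15A, a chloroplast protein that stabilises membranes during freezing, had 0.875, 1.12 and 0.859 CPM in SW_LLC and 45.9, 62.5 and 75.0 CPM in IT_LLC. Its fold change was -5.98 (SE 0.57, adjusted p = 1.25e-06). That was the lowest among called genes with a symbol, a mean log2 CPM of at least 3 and groups that did not overlap. Its close copy COR15B had 0.875, 3.08 and 1.59 CPM in SW_LLC and 27.0, 40.1 and 32.6 CPM in IT_LLC (-4.12, SE 0.40). KIN2, a small hydrophilic protein, had 7.07, 14.4 and 5.95 CPM in SW_LLC and 167, 204 and 189 CPM in IT_LLC (-4.34, SE 0.37). Its near copy KIN1 was close to the lowest level in IT_LLC replicate 1 as well, at 0.0810 CPM, against 8.15 and 6.27 CPM in the other Italian libraries.

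GOLS3, a cold-induced galactinol synthase, stood at the table's lowest value of 1 count in all 3 SW_LLC libraries and had 7.77, 10.1 and 11.1 CPM in IT_LLC, which makes it at least 50.3-fold lower in SW_LLC against a floor of 3 counts per library. The CBF factors themselves were near the limit of detection. CBF2 had 0.146, 0.319 and 0.264 CPM in SW_LLC and 1.54, 1.12 and 1.65 CPM in IT_LLC (-2.47, SE 0.45, adjusted p = 0.000216). CBF1 was at -1.98 (SE 0.59, adjusted p = 0.0102) and CBF3 at -1.76 (SE 0.68, adjusted p = 0.0417). CBF3 was no longer called without SW_LLC replicate 2 (adjusted p = 0.0961), SW_LLC replicate 3 (adjusted p = 0.154), IT_LLC replicate 1 (adjusted p = 0.112) or IT_LLC replicate 2 (adjusted p = 0.0924). The 3 CBF genes are similar tandem copies that can exchange reads.

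Other members fell by less or moved the other way. GRP7, a glycine-rich RNA-binding protein under the clock, had 6.56, 27.6 and 10.8 CPM in SW_LLC and 59.6, 40.0 and 41.2 CPM in IT_LLC (-1.64, SE 0.52), a call lost without SW_LLC replicate 1 or 3 or IT_LLC replicate 1 (adjusted p 0.0585 to 0.0816). COR27, which acts in both cold response and the clock, was at -3.52 (SE 0.66). The 4 that rose were ZAT12 (2.5, SE 0.47), ZAT10 (1.65, SE 0.47) and CZF1 (1.81, SE 0.30), zinc finger proteins also induced by oxidative stress and wounding, and the Mediator subunit SFR6 (0.87, SE 0.17).

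Several phenylpropanoid and flavonoid genes were lower. Of 19 members 9 passed the filter, with 5 lower, 0 higher and 4 not called, with a median of -1.44 among the 9. PAL2, a phenylalanine ammonia-lyase at the entry of the pathway, had 14.5, 23.8 and 18.6 CPM in SW_LLC and 162, 138 and 111 CPM in IT_LLC (-2.85, SE 0.41, adjusted p = 2.78e-05). PAL1 was at -2.16 (SE 0.36). Chalcone synthase, CHS, had 0.437, 1.70 and 1.26 CPM in SW_LLC and 18.5, 29.0 and 22.6 CPM in IT_LLC (-4.31, SE 0.93). F3H, which acts later in flavonoid synthesis, was at -1.44 (SE 0.33).

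Glucosinolates, sulfur-rich defence compounds of the cabbage family, are made by an aliphatic branch from methionine and an indolic branch from tryptophan. Of 23 tested genes, 10 were lower and 3 higher; 6 were lower without SW_LLC replicate 3, IT_LLC replicate 1 or IT_LLC replicate 2. CYP83A1, an enzyme of the aliphatic branch, had 30.1, 16.9 and 11.6 CPM in SW_LLC and 70.8, 70.9 and 75.8 CPM in IT_LLC (-1.89, SE 0.32), and MYB28, the main activator of that branch, was at -1.45 (SE 0.34). MYB51, an activator of the indolic branch, rose by 1.3 (SE 0.30), and SOT16, a sulfotransferase with preference for indolic precursors, by 1.66 (SE 0.29). By contrast the indolic activator MYB34 was at -1.75 (SE 0.54), with under 1 CPM in all 6 LLC libraries, and the enzyme CYP79B3 at -1.21 (SE 0.45). The indolic enzyme CYP83B1 was at 1.23 (SE 0.44). Calls were lost for CYP83B1 without any 1 of the 6 libraries (adjusted p 0.0526 to 0.104), for CYP79B3 without SW_LLC replicate 1 or 3 or IT_LLC replicate 1 or 2 (0.069 to 0.122) and for MYB34 without SW_LLC replicate 2 (0.0521). The Swedish libraries disagreed on MAM1, which lengthens methionine chains: it had 6.42, 0.266 and 0.661 CPM in SW_LLC, against 16.9, 12 and 9.66 CPM in IT_LLC (-2.46, SE 0.70). Here replicate 1, not replicate 2, was the library nearest to the Italian group. In bulk leaf samples such as these, fewer cells of a type and less RNA per cell cannot be told apart.

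**Figure D3:**
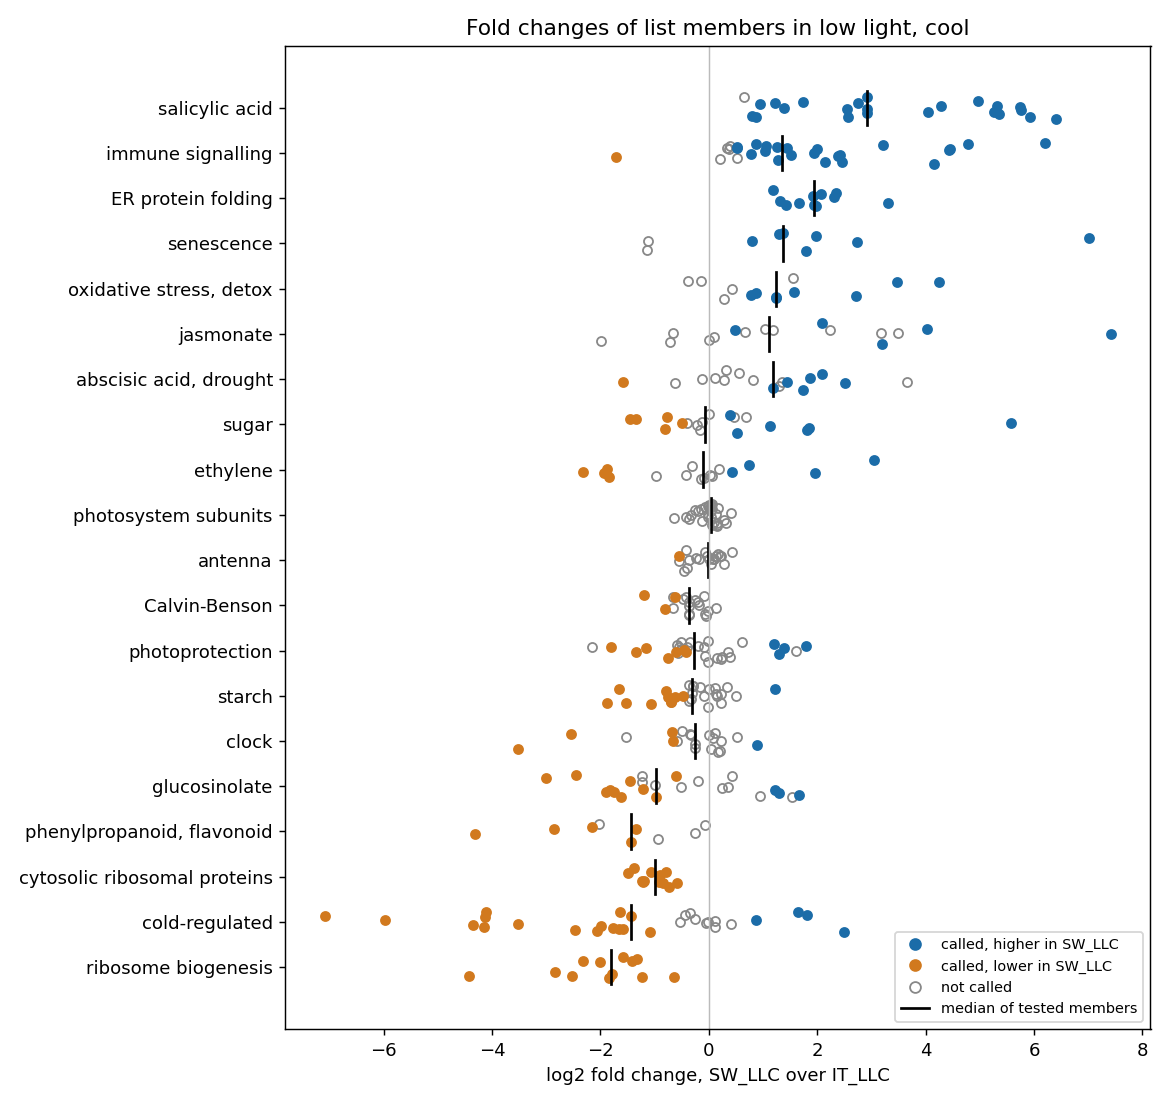
Log2 fold change of SW_LLC over IT_LLC for each tested member of 20 lists, with called genes filled (blue higher, orange lower), genes not called open, and a black line at the list's median over tested members. All tested members of the salicylic acid and ER lists lie to the right of 0 and all of both ribosome lists to the left, most immune genes lie to the right with FLS2 at -1.71, and the photosystem list is centred near 0 with no member called.

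Few genes of the light reactions of photosynthesis were called, and the Swedish libraries spread widely. Summed antenna levels were 27209, 32850 and 17513 CPM in SW_LLC and ran from 27741 to 30129 CPM in IT_LLC. Without SW_LLC replicate 2 the median fold change was -0.23 for photosystem genes and -0.23 for antenna genes, against 0.03 and -0.01 with it. Of 29 nuclear photosystem and electron transport genes, 0 were called in either direction by edgeR's quasi-likelihood test, with a median of 0.03, against 1 at an unadjusted p below 0.05 and 0 by DESeq2; 2 were called lower without SW_LLC replicate 2. Of 20 antenna genes, 1 was called, LHCA5 of photosystem I (-0.55, SE 0.17), and it was not called without SW_LLC replicate 1 (adjusted p = 0.073), SW_LLC replicate 3 (adjusted p = 0.0865) or IT_LLC replicate 2 (adjusted p = 0.0657). PSBS, the photosystem II subunit needed for rapid dissipation of excess light as heat, had 200, 251 and 161 CPM in SW_LLC and 283, 326 and 295 CPM in IT_LLC. Its fold change of -0.56 (SE 0.23) just missed the threshold (adjusted p = 0.0515) and passed it without SW_LLC replicate 2 (adjusted p = 0.0201).

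Of 19 Calvin-Benson genes, 3 were lower and 0 higher, beside 20% and 22.7% of all genes tested. SBPASE, which regenerates the carbon dioxide acceptor, had 155, 215 and 141 CPM in SW_LLC and 373, 437 and 358 CPM in IT_LLC (-1.19, SE 0.24), and the other two were GAPB (-0.80, SE 0.25) and FBA2 (-0.63, SE 0.24). GAPB was not called without SW_LLC replicate 1 or 3 or IT_LLC replicate 2, and FBA2 without any 1 library other than SW_LLC replicate 2. The count was 7 without SW_LLC replicate 2 and 1 without SW_LLC replicate 1, SW_LLC replicate 3 or IT_LLC replicate 2. The summed level of 6 mesophyll markers ran from 10273 to 18708 CPM in SW_LLC and from 19090 to 21905 CPM in IT_LLC. Of the 6, 1 was called (3 without SW_LLC replicate 2). The called marker was GAPB itself, and the antenna gene CAB3 is among the others, so the sum is not separate from the lists above. The part of mesophyll content in these values was not tested.

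Starch genes were lower more often than higher. Of 28 tested, 10 were lower and 1 higher, with a median of -0.31; 6 were lower without SW_LLC replicate 1 or IT_LLC replicate 2, and 5 without SW_LLC replicate 3. GBSS1, which makes amylose, had 15.2, 19.5 and 15.3 CPM in SW_LLC and 65.7, 70.4 and 48.5 CPM in IT_LLC (-1.88, SE 0.26, adjusted p = 1.84e-05). SS1, a soluble starch synthase, was at -1.06 (SE 0.22). Among genes of breakdown, the cytosolic phosphorylase PHS2 had 10.1, 31.8 and 13.3 CPM in SW_LLC and 41.4, 56.0 and 63.5 CPM in IT_LLC (-1.54, SE 0.29). The chloroplast beta-amylase BMY8, also named BAM3, was at -1.66 (SE 0.33). The member that rose was another beta-amylase, BAM1, at 1.22 (SE 0.35), and it was not called without SW_LLC replicate 3 (adjusted p = 0.0593).

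Sugar genes went both ways. The hexose importer STP4 had 83.2, 46.3 and 92.6 CPM in SW_LLC and 18.5, 19.4 and 23.4 CPM in IT_LLC (1.85, SE 0.25), and the cytosolic invertase CINV1 rose by 1.14 (SE 0.20). SUC2, which loads sucrose into the phloem, had 59.5, 68.4 and 58.8 CPM in SW_LLC and 101, 124 and 93.7 CPM in IT_LLC (-0.77, SE 0.20), and the sucrose-phosphate synthase SPS4F was at -1.45 (SE 0.33). In all, 6 of 18 tested were higher and 5 lower, beside 22.7% and 20% of all genes tested. Of 10 phloem markers, SUC2 among them, 3 were lower and 1 higher, and their sum ran from 126 to 151 CPM in SW_LLC and from 172 to 217 CPM in IT_LLC; its part in the SUC2 value was not tested. SIP2, a raffinose-hydrolysing galactosidase, was among the 12 lowest genes at -2.24 (SE 0.57).

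The photoprotection list, which also holds antioxidant genes, went both ways. Of 32 genes, 4 were higher and 7 lower, beside 22.7% and 20% of all genes tested. The lower count was 12 without SW_LLC replicate 2, 4 without SW_LLC replicate 1 or IT_LLC replicate 2, and 2 without SW_LLC replicate 3. APX1, the cytosolic ascorbate peroxidase, had 90.3, 98.7 and 134 CPM in SW_LLC and 27.1, 39.2 and 26.4 CPM in IT_LLC (1.8, SE 0.22). VTE1, the tocopherol cyclase, was at -1.81 (SE 0.28). The MIR398c locus, which encodes a precursor of the microRNA miR398, had 6.12, 4.73 and 4.89 CPM in SW_LLC and 30.3, 33.5 and 31.1 CPM in IT_LLC (-2.59, SE 0.26, adjusted p = 1.52e-06). These libraries count the precursor transcript, and the mature microRNA was not measured. CSD1, a copper/zinc superoxide dismutase whose transcript is a known target of miR398, had 17.5, 18 and 20.8 CPM in SW_LLC and 7.45, 8.36 and 5.69 CPM in IT_LLC (1.38, SE 0.29). CSD2, another known target, had 2.62, 3.40 and 1.92 CPM in SW_LLC and 2.35, 1.95 and 0.908 CPM in IT_LLC, and was not called (0.61, SE 0.57, adjusted p = 0.412).

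A pair of ferritin genes was higher. FER1, a ferritin of the chloroplast, had 82.8, 101 and 96.9 CPM in SW_LLC and 6.15, 16.3 and 14.6 CPM in IT_LLC (2.92, SE 0.33), and FER4 rose by 1.63 (SE 0.27). FER3 was not called (-0.05, SE 0.46). In the iron list as a whole, 3 of 11 tested genes were higher and 1 lower, beside 22.7% and 20% of all genes tested.

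Growth, hormone and clock lists had called members in both directions, beside 22.7% higher and 20% lower of all genes tested. Of 19 tested cell wall genes, 4 were higher and 4 lower; 2 were higher without SW_LLC replicate 1, IT_LLC replicate 2 or IT_LLC replicate 3. EXO, a brassinosteroid-induced growth gene, had 165, 143 and 43.6 CPM in SW_LLC and 10.4, 7.88 and 12 CPM in IT_LLC (3.54, SE 0.40), and XTH24, a wall-loosening xyloglucan enzyme, rose by 3.63 (SE 0.56). The expansins EXPA11 and EXPA8 were at -2.67 (SE 0.54) and -2.16 (SE 0.59). GASA1, a small secreted peptide of the gibberellin-regulated family, had 158, 239 and 91.2 CPM in SW_LLC and 19.4, 14.6 and 15.5 CPM in IT_LLC (3.30, SE 0.65). CER1, an enzyme of wax alkane synthesis, rose by 4.49 (SE 0.73). In the ethylene list 4 of 16 tested genes were higher (2 without SW_LLC replicate 3) and 4 lower; the receptor ETR2 was at -2.32 (SE 0.33), the F-box gene EBF2 at -1.84 (SE 0.24) and the transcription factor EBP at -1.88 (SE 0.38).

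Of 20 tested clock genes, 4 were lower and 1 higher, beside 20% and 22.7% of all genes tested. The lower count was 2 without SW_LLC replicate 3, IT_LLC replicate 1 or IT_LLC replicate 2. PRR5 had 0.656, 1.59 and 0.529 CPM in SW_LLC and 17.4, 8.02 and 8.09 CPM in IT_LLC (-3.52, SE 0.85), and PRR3 was at -2.54 (SE 0.56). PRR9 was at 0.88 (SE 0.24). The morning gene CCA1 was at -0.67 (SE 0.24, adjusted p = 0.0328), a call lost without SW_LLC replicate 2 or 3 or IT_LLC replicate 1 or 2 (adjusted p 0.0586 to 0.127). The end of the night was the sole time sampled. BT1 and BT2, BTB-domain proteins that respond to nitrate and sugar, were at -3.46 (SE 0.58) and -2.65 (SE 0.81); BT2 was not called without IT_LLC replicate 1 (adjusted p = 0.0502). The floral repressor FLC had 41.6, 46.4 and 48.0 CPM in SW_LLC and 31.6, 29.6 and 37.1 CPM in IT_LLC and was not called (0.47, SE 0.57, adjusted p = 0.533).

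Some transcripts were present in one LLC group and absent from the other. Present meant at least 1 CPM in all 3 libraries, absent at most 3 counts in all 3. By this rule 55 of 33610 (0.164%) were present in SW_LLC and absent from IT_LLC, and 15 (0.0446%) showed the reverse; the same counts were 5 and 30 in HLW, 130 and 92 in LLW and 7 and 78 in high light, cool. The highest of the 55 was BON1, a copine that holds back immune responses, with 453, 154 and 666 counts in SW_LLC and the lowest value of 1 count in each IT_LLC library, at least 122-fold higher in SW_LLC. BON1 was also at or near the lowest value in single HLW libraries, at 0.151 CPM in SW_HLW replicate 2 and 0.106 CPM in IT_HLW replicate 1, while the other libraries had 8.66 and 9.76 CPM in SW_HLW and 9.87 and 11.1 CPM in IT_HLW. PUB54, a U-box protein, was at least 80.2-fold higher in SW_LLC. Apart from GOLS3, the highest transcripts present in IT_LLC alone were the plastid locus ATCG00940, at least 303-fold lower in SW_LLC, and AT5G62280, at least 18.9-fold lower. ATCG00940 also dropped out of single libraries elsewhere, with 0.0716, 17.0 and 0.0834 CPM in SW_HLW.

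The same contrast of labels in high light and warm air gave a different picture. There 4317 genes (24.4%) were called, 1807 (10.2%) higher and 2510 (14.2%) lower in SW_HLW. Of the 2611 genes called in both regimes, 34.5% of the LLC calls and 60.5% of the HLW calls, 734 were higher in both, 1247 lower in both, 549 higher in SW_LLC but lower in SW_HLW, and 81 lower in SW_LLC but higher in SW_HLW. The test of the difference itself, the LLC fold change minus the HLW fold change, called 3454 genes (19.5%), 2254 (12.7%) more positive and 1200 (6.78%) more negative in LLC. Without SW_LLC replicate 2 it called 5025, and without SW_LLC replicate 3 it called 2299. The regimes also differ in the transcript set their libraries carry, and set and regime cannot be told apart in this difference. HLW was chosen because its library codes run in the same number series as those of LLC. In earlier results both its groups also carried the same transcript set. It differs from LLC in both light and temperature, and fold changes between the labels in LLW and HLC are not given here.

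Genes of the salicylic acid list were among those that differed between the regimes. All 23 tested members had a more positive fold change in LLC than in HLW, and in HLW itself 15 were lower and 0 higher in SW_HLW. PR5 was at -2.78 (adjusted p = 0.00412) in HLW and the difference was 7.75 (adjusted p = 1.57e-05). PR1 did not pass the test in HLW (-1.06, adjusted p = 0.407), but its difference did (6.99, adjusted p = 0.000736). For the 28 immune signalling genes the difference was positive in 25 and negative in 0, and for the 11 ER genes in 11 and 0. The 3 genes with the smallest adjusted p among positive differences were CNGC3, a cyclic nucleotide-gated channel, and RK1 and RK2, a neighbouring pair of receptor kinases of similar sequence. CNGC3 had 27.9, 20.8 and 39.7 CPM in SW_LLC and 4.45, 3.62 and 6.68 CPM in IT_LLC, with fold changes of 2.59 in LLC and -2.82 in HLW (difference 5.40, adjusted p = 2.81e-07).

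Cold and starch genes differed the other way. KIN2 was at 0.66 (adjusted p = 0.17) in HLW and its difference was -5.0 (adjusted p = 2.33e-06), and COR15B differed by -4.31 (adjusted p = 1.93e-05). PK1B, a protein kinase and the remaining gene of the 3 with the smallest adjusted p among negative differences, was at -1.32 in LLC and 0.43 in HLW. Of 28 starch genes the difference was negative in 14 and positive in 0, and in HLW itself 11 were higher and 1 lower in SW_HLW. Of 29 cold-regulated genes it was negative in 10 and positive in 3.

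For the ribosome lists no difference between the regimes was called. All 12 ribosome biogenesis genes were lower in SW_HLW as well, with a median of -2.18, and the difference between regimes was called in 0 of them (edgeR's quasi-likelihood test; also 0 at an unadjusted p below 0.05 and 0 by DESeq2). The 12 ribosomal protein genes were also lower in SW_HLW, with a median of -1.01, and again 0 differences were called, with 0 at an unadjusted p below 0.05 and 0 by DESeq2. For NOP56 the fold change was -2.01 in LLC and -2.28 in HLW, a difference of 0.27 (SE 0.37). CER1 and EXO were higher in the Swedish libraries of both regimes, at 4.49 and 3.54 in LLC and 5.39 and 3.75 in HLW, and PAL1, PAL2, ETR2, EBF2 and EBP were called lower in both.

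**Figure D4:**
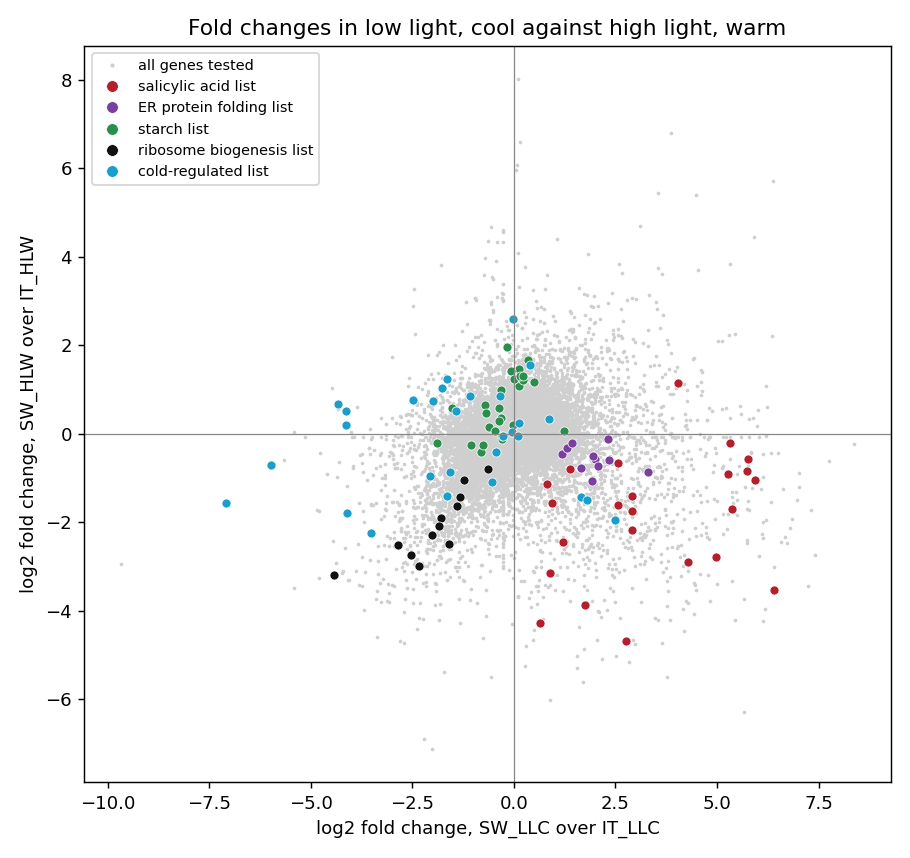
Each point is 1 of the 17709 tested genes, with the log2 fold change of SW_LLC over IT_LLC on the x axis and of SW_HLW over IT_HLW on the y axis; 5 lists are coloured. Ribosome biogenesis genes lie in the lower left (lower in SW in both regimes) and most salicylic acid genes in the lower right (higher in SW_LLC, lower or not called in SW_HLW).

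The LLC difference was also set beside the genes called between the LLW and HLC regimes. From low light, warm to high light, cool libraries, which share none with LLC, 9881 genes (55.8%) were called over the mean of both labels. Of the 5041 higher in high light, cool (28.5%), 29.7% were higher in SW_LLC and 18.1% lower. Of the 4840 lower there (27.3%), 16% were higher in SW_LLC and 24.7% lower. Beside the 22.7% and 20% of all tested genes, these shares are a description with no test.

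Markers of other organs gave little signal in either group. Of 8 root markers 6, and of 7 flower and meristem markers 6, were at the table's lowest value in all 6 LLC libraries. The sum of the 8 root markers ran from 5.29 to 7.0 CPM in SW_LLC and from 5.34 to 6.48 CPM in IT_LLC. Of 8 guard cell markers 2 were lower and 0 higher, with sums of 22.5 to 29.2 CPM in SW_LLC and 37.0 to 49.1 CPM in IT_LLC, and of 6 tested epidermal markers 2 were lower and 0 higher. Of 7 tested xylem markers 0 were called by edgeR's quasi-likelihood test, 0 at an unadjusted p below 0.05 and 0 by DESeq2, but 3 were lower without SW_LLC replicate 2. Of all genes tested, 20% were lower and 22.7% higher in SW_LLC. The part of cell composition in the results above was not tested.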

How the data were processed

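RNA was sequenced from 24 leaf libraries in 8 groups of 3. Levels and fold changes of single genes and lists come from the 12 libraries of LLC and HLW. The LLW and HLC libraries also entered the transcript sets, the counts of present or absent transcripts and the contrast of HLC with LLW. The authors deposited 1 table of counts per gene, whole numbers whose lowest value is 1, so an offset or a replacement of 0 is possible. Per the submitters' processing notes, the tools were HISAT, StringTie and DESeq2 and the build was TAIR10. Those notes state no version, no role and no strand setting for them. Per the labels, TruSeq libraries followed a depletion of ribosomal RNA. Both ecotypes were counted on 1 reference, so transcripts that differ from it can be counted less, and near-identical or overlapping genes can exchange reads. Symbols came from the TAIR10.1 gene table by locus (28932 identifiers matched, 4678 did not); coordinates and sequences were not used, since that is not the authors' build.

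Counts as deposited were fitted with edgeR 4.0.16 in R 4.3.3 (TMM, filterByExpr with a minimum count of 10, robust glmQLFit, glmQLFTest) on all 24 libraries, which share 1 estimate of the spread (median biological coefficient of variation 0.165). P-values were adjusted by Benjamini-Hochberg over all 17709 genes tested. The code was run on counts simulated from this fit with 200 genes changed. The data differ from that setting, with 42.8% of genes called, so the run does not show how the fit behaves on them. Replicate numbers did not pair the libraries: deviations of same-numbered SW_LLC and IT_LLC libraries correlated at r = -0.0125, 0.0842 and -0.0434 over genes. No pair of replicates agreed within sampling noise. A floor of 3 counts per library covers counting error only.

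Named genes were the 12 highest and 12 lowest fold changes (adjusted p below 0.05, mean log2 CPM of at least 3, groups that do not overlap, with a symbol), up to 4 members of each of 41 lists, the 3 highest present or absent transcripts and the 3 smallest adjusted p of the difference in each direction, and CBF1, CBF2, CBF3, PSBS and FLC; part of these are printed. NPR1, WRKY54, CRK7, CYP71A13, FLS2, BIP1, BIP2, FIB2, NUC1, KIN1, COR27, GRP7, ZAT12, ZAT10, CZF1, SFR6, MAM1, BAM1, CSD1, CSD2, WRKY18, MYB34, CYP79B3, CYP83B1, FER3 and the gene families were chosen after their values were seen. The comparison, the members and the lists were chosen with earlier results of these data known.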

Additional observations from a re-analysis of the deposited data

Results flagged for a closer look

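The difference between the labels SW and IT in LLC differed from that in HLW for 3454 of the genes tested (19.5%). By this test of the difference itself, 12.7% of all genes tested were positive and 6.78% negative. Among the 120 genes followed in the text it called 74, 53 with a positive and 21 with a negative difference. Those 120 were chosen in part by their LLC fold change or by this difference, so their share is not a result. Values are the log2 fold change in LLC minus that in HLW (edgeR's quasi-likelihood test, adjusted p below 0.05). No explanation was tested, and regime and transcript set cannot be told apart here.

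Among salicylic acid and immune genes the differences were 6.99 for PR1, 7.07 for PR2, 7.75 for PR5, 5.53 for ICS1, 6.33 for EDS5, 6.59 for PBS3, 1.94 for NPR1, 2.52 for WRKY18 and 4.93 for WRKY54. They were 7.98 for RLP23, 6.28 for CRK5, 9.41 for CRK7, 7.81 for MPK11, 1.5 for BAK1, 8.16 for CYP71A13, 5.40 for CNGC3, 5.28 for RK1 and 3.96 for RK2. TAT3 differed by 10.17, CHI (AT2G43570) by 8.46, AIG1 by 4.15, CAX3 by 5.14, CYP89A9 by 4.55 and OPR3 by 4.0.

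Among folding, senescence and detoxification genes the differences were 4.17 for CRT3, 2.98 for BZIP60, 2.44 for HSP90-7, 2.44 for PDIL1-1, 2.55 for BIP1, 2.80 for BIP2, 6.52 for HSP90-1 and 7.18 for Hsp70-2. SAG13 differed by 8.22, NYE1 by 1.32, PAO by 0.91, WRKY6 by 4.92, GLN1-1 by 2.18, GSTF6 by 8.03, GSTF7 by 7.64, AOX1A by 3.12, APX1 by 1.3, CSD1 by 1.54, FER1 by 2.03 and FER4 by 1.25.

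Among cold genes the differences were -5.28 for COR15A, -4.31 for COR15B, -5.0 for KIN2, -2.71 for CBF1, -3.23 for CBF2 and -2.87 for GRP7, but 4.45 for ZAT12, 3.08 for ZAT10 and 3.31 for CZF1. Among carbon genes they were -1.68 for GBSS1, -2.12 for PHS2 and -1.40 for SUC2, and 3.04 for STP4 and 2.00 for CINV1. Others were -1.12 for PSBS, -1.85 for VTE1, -2.21 for MIR398c, -3.67 for CHS, -1.70 for F3H, -1.70 for CYP83A1, -1.80 for MYB28, 3.15 for SOT16, 4.31 for MYB51, -3.76 for MYB34, 3.83 for CYP83B1, -3.40 for PRR5, 3.18 for XTH24, -2.77 for EXPA11, -2.52 for BT1 and -1.75 for PK1B.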

How the results depend on the processing

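Without 1 LLC library in turn, the count of genes called in SW_LLC against IT_LLC ran from 5771 to 8333 (3196 to 4321 higher, 2575 to 4012 lower), and by DESeq2's Wald test it was 7386. For the difference between LLC and HLW, leaving out each of the 12 libraries gave 2299 to 5025 genes (1662 to 2981 positive, 637 to 2044 negative). The plastid difference was -5.96 to -4.91 percentage points. Replicate numbers did not pair the libraries; with a replicate block within regime 6974 genes were called (3689 higher, 3285 lower), and 2881 for the difference between regimes. Transcripts present in SW_LLC and absent from IT_LLC numbered 142 at 0.5 CPM, 17 at 2 CPM, 24 with absence at 1 count and 222 with absence at 10 counts. The reverse counts were 48, 5, 8 and 112. The difference between regimes could not be fitted on the LLC libraries alone, where SW_LLC against IT_LLC called 6050 genes. Of 120 genes and 34 list counts followed through every alternative, 0 genes with a call changed direction. Calls were lost under at least 1 alternative by 13 genes: CBF3, GRP7, BAM1, GAPB, FBA2, LHCA5, CCA1, BT2, MAM1, WRKY18, MYB34, CYP79B3 and CYP83B1. PSBS gained a call under 5 of them and FLC under 1, the LLC libraries alone (adjusted p = 0.0411). List counts moved by over 1.5 times for 11 of the 34, among them the starch (5 to 14 lower), Calvin-Benson (1 to 7), photoprotection (2 to 12), glucosinolate (down to 6) and clock (down to 2) lists; the cause was not tested. The median fold change of all genes stayed within 0.1 of 0 under each scaling and was -0.11 with no filter on low counts. In LLC, 22 lists and directions had 0 members called by edgeR's quasi-likelihood test; 4 of them held a member at an unadjusted p below 0.05, and 2 held one called by DESeq2. Depth limits the CBF genes, FIB2 and the present or absent transcripts, which rest on few counts.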
